A study of Mus musculus with 44 samples.

Results

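The D1 nuclei of the nucleus accumbens of female mice were compared between 4 libraries with retinoid X receptor alpha (RXRa) delivered by a virus and 5 libraries with the fluorescent protein EGFP alone. These 9 libraries are the ones whose column names mark females, the D1 population and one of both vectors, of 44 samples in the whole series. Control animals had received AAV9-CAG-DIO-EGFP. RXRa animals had received AAV9-CAG-DIO-EGFP-P2A-RXRa. In both vectors the insert is inverted and is switched on only where Cre recombinase is present (DIO), under the broadly active CAG promoter, so EGFP is shared by all 9 libraries. The Cre line, the strain, the age of the mice, the time after infusion and the number of animals per library are not given in the sources used here. The column names hold no replicate 3 of the RXRa group. The labels do not say that the libraries came from separate animals, so p-values measure the spread between these libraries, which may in part be technical. The sorted table also holds 26 assigned libraries of D1 males and of D2 nuclei, which shared the estimate of spread in the fit. A further sorted library, for which the title and the vector label disagree, was left unassigned. The 8 bulk libraries, which came from males given GFP or RXRa, were used only to define silent genes.

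The nucleus accumbens is the ventral part of the striatum, and most of its neurons are inhibitory projection neurons of a D1 or a D2 kind. D1 neurons carry the dopamine receptor Drd1, which raises cAMP, and make substance P (Tac1) and dynorphin (Pdyn). D2 neurons carry Drd2, which lowers cAMP, and make enkephalin (Penk). RXRa is a nuclear receptor that pairs with retinoic acid receptors, thyroid hormone receptors, LXR, PPAR and others, and these pairs bind repeats of the half-site AGGTCA in the DNA near their target genes.

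Total counts over genes were 21978032 to 27757463 in the EGFP libraries and 14802584 to 25351296 in the RXRa libraries. Genes that no bulk library detected still had counts here. Their median was 0.503 ± 0.0259 counts per 1000000 of the effective library size (CPM) per kb of gene body in EGFP (SD, n = 5) and 0.444 ± 0.0559 in RXRa (SD, n = 4), a log2 difference of -0.19 (exact two-sided permutation test, p = 0.0794). This value is called the silent-gene density, and levels below are given as multiples of it. A level near 1 is the uniform background for genes of 5 kb or longer, the length of the silent genes used. Whether that holds for much shorter genes was not tested. Spread over all annotated genes, that background amounts to 60.2% to 72.8% of the counts in EGFP libraries and 45.4% to 64% in RXRa libraries. RXRa replicate 1 stood apart, with the smallest total and the lowest density, 0.379 CPM per kb, and counts and list medians that moved most without it are also given without it. In nuclei pooled per library, fewer nuclei with a transcript and less transcript per nucleus cannot be told apart.

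Vector-encoded RXRa separated the groups as labelled, while the vector's GFP did not differ beyond the spread. The RXRa entry of the vector, counted apart from the mouse gene, had 284.1 CPM in RXRa replicate 1, 86.5 in replicate 2, 154.6 in replicate 4 and 125.3 in replicate 5. The 5 EGFP libraries had 0.147 to 0.698 CPM of it, or 4 to 17 counts. The difference in mean log2(CPM + 1) was 6.77 (exact two-sided permutation test, p = 0.00794, the smallest that 5 against 4 libraries can give). Vector GFP was 217.8 ± 51.5 CPM in EGFP (SD, n = 5) and 157.9 ± 83 in RXRa (SD, n = 4), a log2 difference of -0.56 (exact two-sided permutation test, p = 0.159). Without RXRa replicate 1, which had 278 CPM, that difference was -0.87 (exact two-sided permutation test, p = 0.0179). Within each RXRa library the RXRa entry was 0.95 to 1.07 times the GFP entry, and the vector encodes both in 1 transcript.

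**Figure D1:**
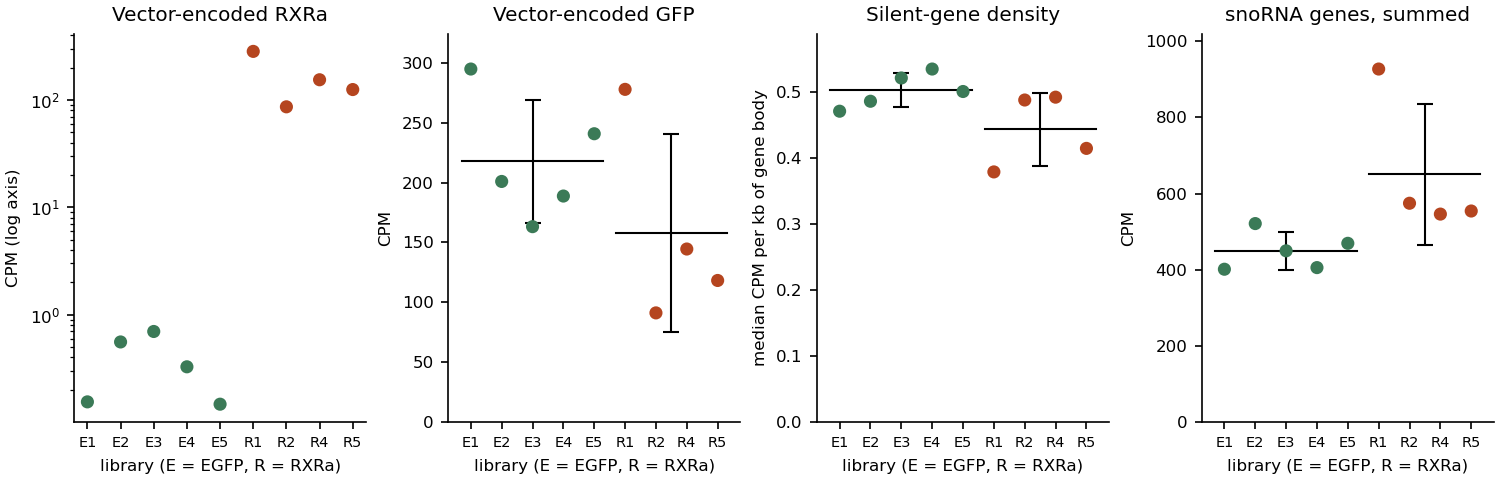
Each point is 1 D1 female library, EGFP (E, n = 5) or RXRa (R, n = 4). The y axes give CPM of the vector's RXRa on a log axis, CPM of its GFP, the silent-gene density in CPM per kb, and the summed CPM of snoRNA genes. Lines and bars are mean ± SD. RXRa is at 86.5 to 284.1 CPM in the R libraries and below 1 in the E libraries, and R1 has the lowest density and the highest snoRNA sum.

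The mouse's own Rxra gene (chr2:27676440-27762957 in GENCODE M21 on GRCm38) lay at the background in both groups. Its level was 0.954 ± 0.0529 times the silent-gene density in EGFP (SD, n = 5) and 1.15 ± 0.26 in RXRa (SD, n = 4). The log2 fold change between the groups was 0.06 ± 0.11 (SE), so that no difference of the endogenous transcript was detectable over this background.

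The nuclei carried D1 transcripts well above background, with D2 transcripts lower than in D2 female libraries. Drd1 was at 12.6 to 34.1 times the silent-gene density in EGFP and 22.8 to 44.9 in RXRa, and the groups overlapped. In the 8 D2 female libraries Drd1 was at 2.83 to 13.9 times that density. Pdyn was at 3.68 to 7.72 times in EGFP and 6.54 to 13 in RXRa, against 1.27 to 2.59 in D2 female libraries. Tac1 was at 3.7 to 8.99 times in EGFP and 8.18 to 14.2 in RXRa, and here the D2 female range, 2.64 to 8.14, overlapped the EGFP range. The D2 receptor gene Drd2 was at 1.38 to 1.97 times in EGFP and 1.84 to 3.5 in RXRa, far under its 14.7 to 68.2 in D2 female libraries. Penk was above background, at 8.21 to 27.1 times in EGFP and 25.4 to 66.8 in RXRa, against 75 to 382.9 in D2 female libraries. Ebf1, a transcription factor of D1 neurons, was at 1.28 to 1.64 times over all 9 libraries, close to background.

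Markers of other cells were mostly near the background. The median over both groups was 1.13 times the silent-gene density for 7 astrocyte markers, 1.54 for 6 oligodendrocyte markers, 1.24 for 7 microglia markers, 1.13 for 6 endothelial markers and 1.31 for 7 cortical excitatory markers. None of those markers was at 0 counts in all 9 libraries. The bicarbonate transporter gene Slc4a4, on the astrocyte list, was the exception among the astrocyte markers, at 2.41 ± 0.479 times in EGFP (SD, n = 5) and 3.3 ± 0.838 in RXRa (SD, n = 4). The interneuron neuropeptide gene Sst, with a short body of 1.39 kb, reached a mean of 10.2 times in EGFP and 7.66 in RXRa. In EGFP replicate 2 it was at 22.2 times, and in the other EGFP libraries at 4.85 to 8.85. D2 female libraries had 2.32 to 24.9 times.

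**Figure D2:**
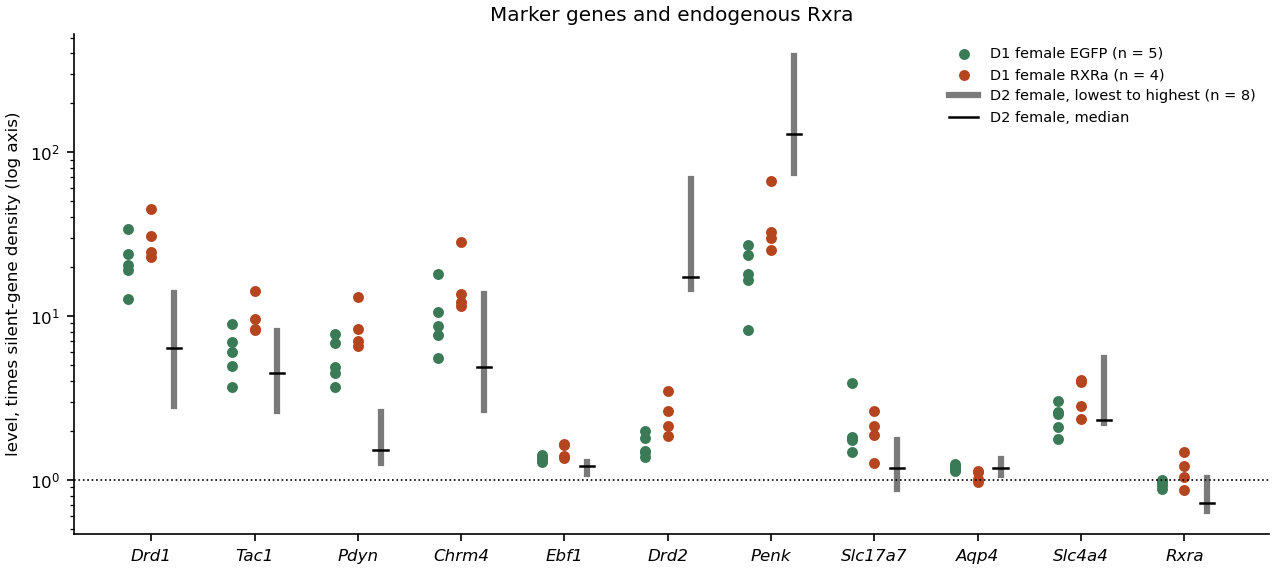
The y axis gives the level of each gene as a multiple of the silent-gene density, on a log axis, with a dotted line at 1. Points are D1 female libraries (EGFP, n = 5, and RXRa, n = 4), and grey bars run from the lowest to the highest of 8 D2 female libraries with the median as a black tick. Drd1 and Pdyn are higher in D1 than in most or all D2 libraries, Drd2 and Penk are lower, and Rxra and Aqp4 lie near 1.

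No gene passed the test of RXRa against EGFP. Of 43902 genes tested with edgeR's quasi-likelihood test, 0 had a Benjamini-Hochberg adjusted p under 0.05, while 2761 had an unadjusted p under 0.05, or 6.29%. Of these, 1262 were higher with RXRa (2.87% of all tested) and 1499 lower (3.41%). With library totals in place of TMM scaling, 717 of 3340 such genes were higher, and the median log2 fold change over all genes moved from 0 to -0.09. The groups did not overlap at all for 457 genes that were higher (1.04%) and 624 that were lower (1.42%). Leaving out RXRa replicate 1 made these 650 (1.48%) and 837 (1.91%). DESeq2 called 4 genes, Raet1e, H60b, Gm26740 and C920009B18Rik, which share 1 stretch of chromosome 10, and limma voom called 0. The same 4 passed with edgeR when EGFP replicate 5 was left out. A fit on the 9 libraries alone called 1 gene, the interferon-induced Ifit1. All values below are therefore descriptions of genes that did not pass the test in the fit over 35 libraries.

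The listed antiviral and interferon-induced genes were mostly lower with RXRa by log2 fold change, and Ifit1 had the lowest value of the list. Many interferon-induced genes are switched on through interferon-stimulated response elements in their promoters. Ifit1 encodes a protein that binds foreign RNA and blocks its translation, and it sits on chromosome 19 beside its relatives Ifit2 and Ifit3. The 3 promoters are printed because Ifit1 differed in its values from these neighbours. They run from 250 bases before the RefSeq start (GRCm38.p6, plus strand) at chr19:34640639-34640888 for Ifit1, chr19:34550444-34550693 for Ifit2 and chr19:34583279-34583528 for Ifit3. Capitals mark matches to TTTCNNTTTC, the core of an interferon-stimulated response element, searched on both strands.
Ifit1: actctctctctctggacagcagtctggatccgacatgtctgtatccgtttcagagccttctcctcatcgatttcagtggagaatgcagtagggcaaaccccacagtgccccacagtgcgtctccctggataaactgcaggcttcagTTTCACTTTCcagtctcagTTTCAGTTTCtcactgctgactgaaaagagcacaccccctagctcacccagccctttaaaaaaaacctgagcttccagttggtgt
Ifit2: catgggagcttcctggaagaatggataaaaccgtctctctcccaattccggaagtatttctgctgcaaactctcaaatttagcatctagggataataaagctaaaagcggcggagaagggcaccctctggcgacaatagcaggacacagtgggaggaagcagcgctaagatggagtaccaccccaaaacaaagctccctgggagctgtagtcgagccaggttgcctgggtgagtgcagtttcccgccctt
Ifit3: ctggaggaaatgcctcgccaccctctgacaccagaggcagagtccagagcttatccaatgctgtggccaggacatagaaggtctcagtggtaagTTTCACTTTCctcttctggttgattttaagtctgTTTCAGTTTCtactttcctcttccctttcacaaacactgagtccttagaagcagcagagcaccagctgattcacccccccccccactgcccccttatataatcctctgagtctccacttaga
The Ifit1 and Ifit3 promoters each held 2 matches and the Ifit2 window held 0. Of other genes on the list that were lower without overlap, the Oasl2 and Ifih1 windows held 0 and the B2m window 1. Of all 32851 promoters in the table, 2.98% held at least 1. The RXR half-site AGGTCA, present in 14% of all promoters on either strand, and its repeat AGGTCANAGGTCA, in 0.0335%, had no match in the 3 Ifit windows. A match describes the letters only and shows no binding.

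Ifit1 had 12.9, 9.47, 9.48, 11 and 11.5 CPM in EGFP replicates 1 to 5 and 2.9, 4.16, 5.18 and 4.13 CPM in RXRa replicates 1, 2, 4 and 5. Every RXRa library was thus below every EGFP library. As a multiple of the silent-gene density, Ifit1 was 2.38 ± 0.4 in EGFP (SD, n = 5) and 1 ± 0.144 in RXRa (SD, n = 4), so its level with RXRa was that of the background. The log2 fold change was -1.39 ± 0.31 (SE), with an edgeR adjusted p of 0.719. In the fit on the 9 libraries alone the adjusted p was 0.00154, and over all alternatives it ran from 0.00154 to 1. With the silent-gene density as a covariate the log2 fold change was -1.2. Its neighbours Ifit2 and Ifit3 had log2 fold changes of -0.06 ± 0.07 and -0.09 ± 0.16 (SE), and their groups overlapped.

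Of 20 interferon response genes tested, 18 were lower and 2 higher by log2 fold change, with a median of -0.21 against 0 over all genes tested. As mean multiples of the silent-gene density, which was lower with RXRa, Ifit2, Ifit3, Rsad2, Irf7, Irf9, Usp18 and Zbp1 of the 18 were higher. Isg15 and Bst2, the 2 with a higher log2 fold change, were higher on that scale too. The remaining genes of the list were lower on it. The groups did not overlap for 7 of the 20, or 35%, all lower, where 1.42% of all genes were lower without overlap. Without RXRa replicate 1 these were 9 of the 20, against 1.91%. An unadjusted p under 0.05 was reached by 7, all lower, against 3.41%. Those described here besides Ifit1 are Oasl2, B2m, Mx2, Ifih1 and Mx1, chosen after their values were seen. Summed over the list, EGFP libraries had 208.4 to 233 CPM and RXRa libraries 176.4 to 189.7.

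Oasl2, an antiviral gene of the oligoadenylate synthetase family, had 11.1 to 13.6 CPM in EGFP and 7.17 to 10.2 CPM in RXRa, a log2 fold change of -0.49 ± 0.18 (SE), with an edgeR adjusted p of 0.787. The dynamin-like antiviral GTPases Mx1 and Mx2 differed by -0.27 ± 0.09 and -0.33 ± 0.11. Ifih1, a sensor of double-stranded RNA, differed by -0.29 ± 0.1, and B2m, the light chain of MHC class I, by -0.35 ± 0.23. These genes lay close to background: Ifih1 was at 1.21 times the silent-gene density in EGFP and 1.12 in RXRa, and B2m at 0.936 and 0.841. Of the 20 genes, 0 reached 3 times that density on average and 7 were under 1.2 times. The density was also lower in RXRa libraries, and over all genes at 0.8 to 1.2 times the density the log2 fold change had a median of -0.06. With the density as a covariate the list's median moved to -0.17, with 5 of 20 genes higher and 6 at an unadjusted p under 0.05. In that fit 1438 of all 43902 genes tested reached that p. B2m overlaps Patl2, and whether reads were split by strand is not given in the sources used here, so these genes may share reads.

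In the D1 male libraries Ifit1 showed no such separation, with 3.68 to 13.3 CPM in EGFP and 4.9 to 15.8 CPM in RXRa. The test of the difference between the female and the male effect gave a log2 difference of -1.59 with an unadjusted p of 0.000738 and an edgeR adjusted p of 1 over 43902 genes. In D2 female libraries Ifit1 had 6.48 to 13.9 CPM in EGFP and 3.24 to 6.46 in RXRa, and the log2 difference between the 2 female effects was -0.28 (edgeR adjusted p = 0.911).

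**Figure D3:**
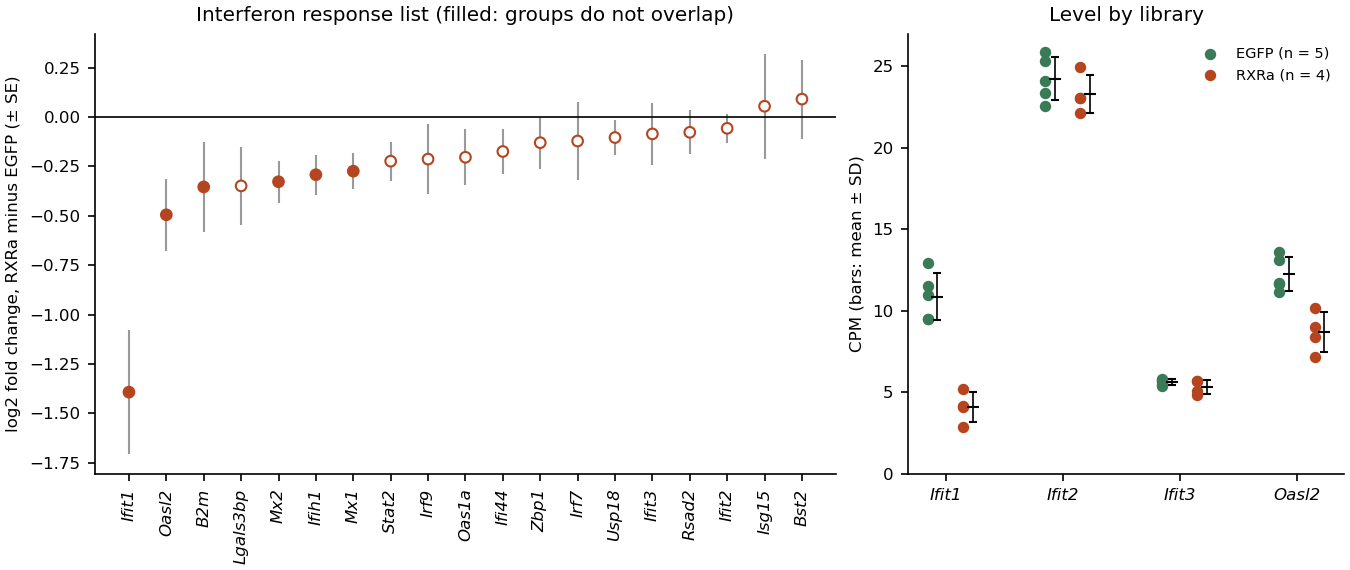
The left panel gives the log2 fold change of RXRa against EGFP in D1 female libraries for 19 of the 20 interferon response genes, with bars of ± SE and filled points where the groups do not overlap. The right panel gives CPM by library with mean ± SD (EGFP, n = 5, RXRa, n = 4). Ifit1 is the lowest point at -1.39, 17 of the 19 genes are below 0, and Ifit2 and Ifit3 overlap between the groups.

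A block of genes in and around Raet1e on chromosome 10 gave the 4 smallest p-values of the comparison. Raet1e, Raet1d and H60b encode ligands of NKG2D, a receptor by which natural killer and T cells recognise stressed cells. Raet1e (chr10:22158569-22374139) had 52.8, 53.5, 54.8, 56.3 and 35.7 CPM in EGFP and 26.6, 32.5, 31.4 and 29.2 CPM in RXRa. All RXRa libraries were below all EGFP libraries, but EGFP replicate 5 lay between the other EGFP libraries and the RXRa group. The log2 fold change was -0.76 ± 0.13 (SE), with an edgeR adjusted p of 0.108, and without EGFP replicate 5 it was -0.86 with an adjusted p of 0.00416. Over all alternatives the adjusted p ran from 0.00186 to 0.955.

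Within 300 kb, groups that did not overlap were seen for genes inside the Raet1e body and for none outside it. Of 7 tested genes inside, 6 were lower without overlap, against 1.42% of all genes tested, with log2 fold changes of all 7 from -1.23 to -0.44. They include H60b at -0.44, Gm26740, an antisense transcript, at -0.72, the pseudogene C920009B18Rik at -0.96 and Raet1d at -0.78. Of 13 tested genes outside, 0 were lower without overlap, with log2 fold changes from -0.42 to 0.23. The 7 genes all lie within the Raet1e body, so their counts may share reads and are not separate measurements. How alike their sequences are was not tested. Levels of the 7 genes were below the uniform background: Raet1e was at 0.467 ± 0.0776 times the silent-gene density in EGFP (SD, n = 5) and 0.314 ± 0.0146 in RXRa (SD, n = 4).

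In the other 26 sorted libraries Raet1e ranged from 34.4 to 56.4 CPM, so the 4 D1 female RXRa libraries were the lowest of all 35. D1 males with RXRa had 38.8 to 55.9 CPM and D2 females with RXRa 40.3 to 54.7. The difference between the female and male effects in D1 was -0.94 on the log2 scale (unadjusted p = 1.69e-05, edgeR adjusted p = 0.371). The difference from the D2 female effect was -0.92 (unadjusted p = 3.8e-05, edgeR adjusted p = 0.417). For C920009B18Rik the difference between the sexes was -1.42 (edgeR adjusted p = 0.138).

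**Figure D4:**
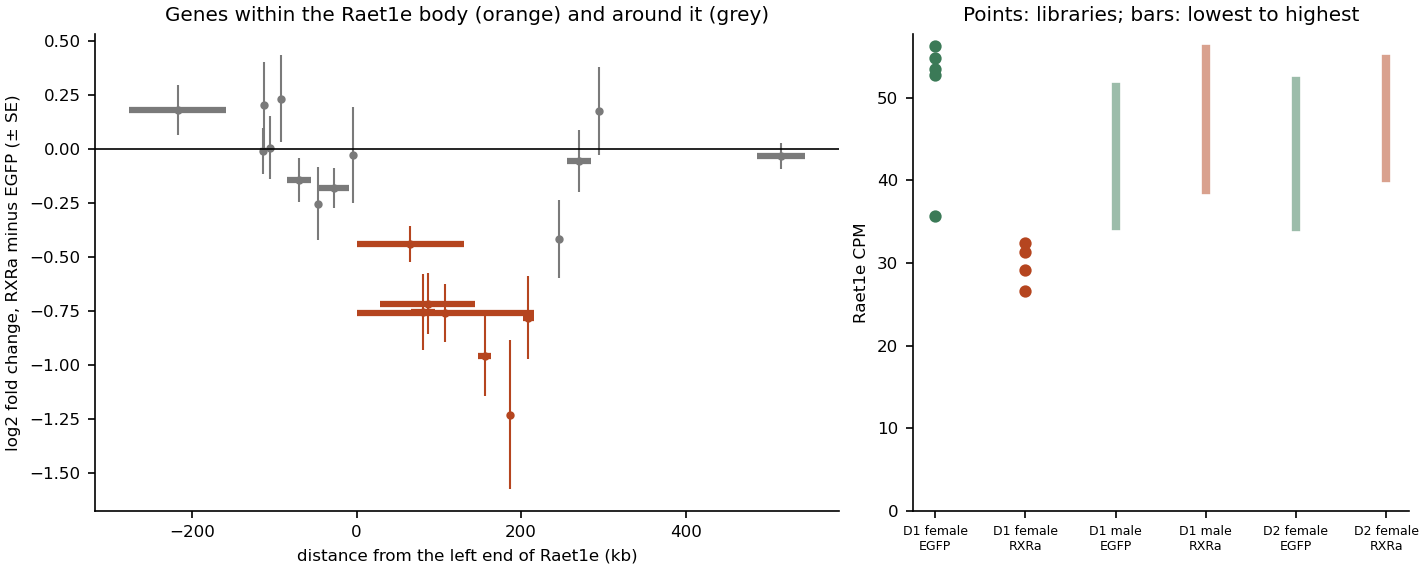
Left, log2 fold change of RXRa against EGFP in D1 female libraries (± SE) by distance from the left end of Raet1e, with each gene's length as a bar, inside the Raet1e body (orange, 7 genes) or outside (grey, 13 genes). Right, CPM of Raet1e by library in D1 females and the lowest-to-highest range in D1 males and D2 females. The 7 inside genes lie at -0.44 or lower, and the 4 RXRa points lie under every other library or range.

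The 16 listed genes of striatal projection neurons all had a higher fitted level with RXRa, and Rarb, Rgs9 and Gng7 among them were highest in the 2 RXRa libraries with the lowest background. Their median log2 fold change was 0.42 against 0 over all genes tested. An unadjusted p under 0.05 was reached by 8, against 2.87% of all genes, but for 0 of the 16 were the groups separate, against 1.04%. Gng7, the G protein gamma subunit that couples dopamine and adenosine receptors to adenylyl cyclase, had 73.2, 72.5, 62.4, 57.4 and 88.6 CPM in EGFP and 131.8, 79.8, 86.1 and 130.4 CPM in RXRa. RXRa replicates 1 and 5 were high, and RXRa replicates 2 and 4 lay within the EGFP range. Its log2 fold change was 0.59 ± 0.18 (SE), with an edgeR adjusted p of 0.787. Rgs9, which ends G protein signals in these neurons, had a log2 fold change of 0.5 ± 0.24.

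Rarb, Rgs9 and Gng7 were high where the silent-gene density was lowest and low where it was highest. Rarb, the retinoic acid receptor beta that pairs with RXR, was at 960.8 and 1170 CPM in RXRa replicates 1 and 5, where the density was lowest, and at 443.2 and 419.3 CPM in EGFP replicates 3 and 4, where it was highest. EGFP replicate 5 departed from that order with 895 CPM, above RXRa replicates 2 and 4. Rarb differed by 0.62 ± 0.23 on the log2 scale (SE; edgeR adjusted p = 0.787), and 0.26 with the density as a covariate. The median of the 16 genes was 0.08 with that covariate, with 0 genes at an unadjusted p under 0.05, and 0.32 without RXRa replicate 1, with 4 such genes. Over all genes tested, 1438 of 43902 reached that p with the covariate and 1278 of 44501 without RXRa replicate 1. The part of the background in these values was not tested.

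**Figure D5:**
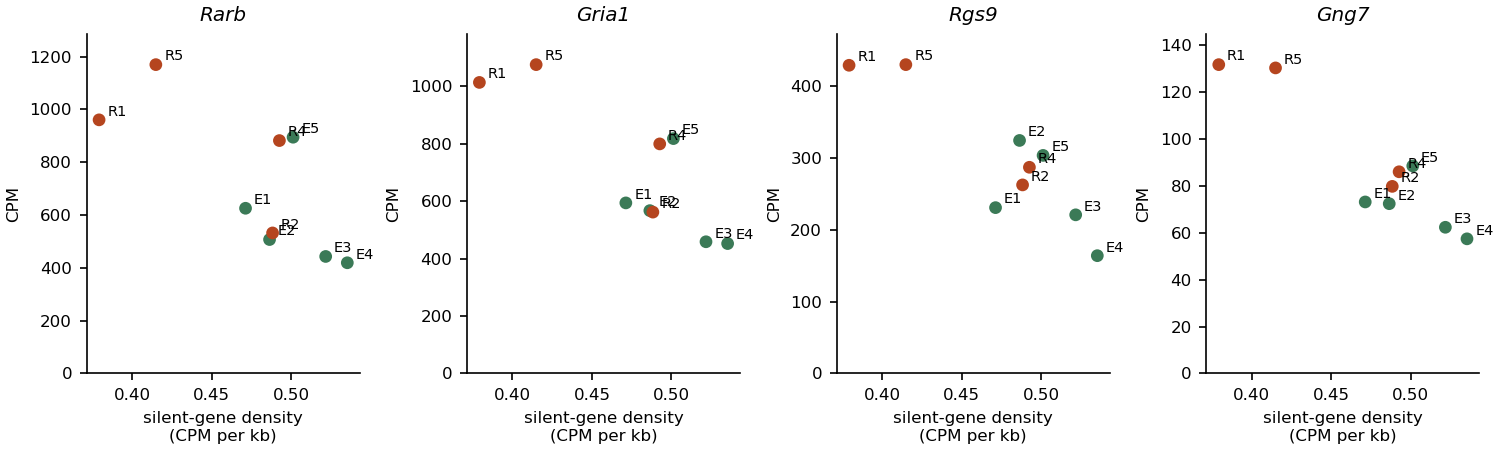
Each panel plots the CPM of 1 gene against the silent-gene density in CPM per kb for the 9 D1 female libraries (E, EGFP, n = 5, green, and R, RXRa, n = 4, orange, with replicate numbers). R1 and R5 combine the lowest densities with the highest CPM of Rarb, Gria1, Rgs9 and Gng7, while R2 and R4 lie among the E libraries.

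Signalling and receptor genes were mostly higher too, and channel genes less so, while some genes of dopamine and cAMP signalling are also on the projection neuron list. Of all genes tested, 2.87% were higher at an unadjusted p under 0.05 and 1.04% were higher without overlap. The median log2 fold change over all genes rose with level, from 0.001 at 1.2 to 2 times the silent-gene density to 0.1 at 2 to 3 times and 0.11 at 3 to 5 times. Genes at 2 to 3 and 3 to 5 times had short bodies, with medians of 2.9 and 0.604 kb. The median body was 67.1 kb for dopamine and cAMP signalling and 184.1 kb for AMPA and NMDA subunits. The medians by level are therefore not matched to these lists in gene length. Median levels were 3.35 times for dopamine and cAMP signalling, 2.53 for AMPA and NMDA subunits, 1.86 for potassium, 1.71 for calcium and 1.92 for sodium channels. In dopamine and cAMP signalling 17 of 18 genes were higher with a median log2 fold change of 0.28, of which 6 had an unadjusted p under 0.05. Among AMPA and NMDA receptor subunits 10 of 11 were higher with a median of 0.28, and 3 reached that p. Gria1, an AMPA receptor subunit, had 452.5 to 818.3 CPM in EGFP and 562.1 to 1076 CPM in RXRa, a log2 fold change of 0.58 ± 0.21. The metabotropic glutamate receptor gene Grm5 differed by 0.47, with overlapping groups. Of 36 potassium channel genes 27 were higher with a median of 0.12, and 6 had an unadjusted p under 0.05. The groups did not overlap for 1 of them, Kcnn3, a calcium-activated channel gene, with 130.6 to 145.3 CPM in EGFP and 146.9 to 181.2 in RXRa. Of 10 voltage-gated calcium channel alpha-1 genes 8 were higher, 3 of them at that p, among them Cacna1c with a log2 fold change of 0.36 ± 0.14. Of 14 voltage-gated sodium channel genes 11 were higher with a median of 0.12, and none had an unadjusted p under 0.05. Without RXRa replicate 1 the medians were 0.19 for dopamine and cAMP signalling, 0.19 for the AMPA and NMDA subunits, 0.06 for potassium channels, 0.1 for calcium channels and 0.02 for sodium channels. In that fit 3, 1, 4, 1 and 0 genes of these lists reached that p in either direction, against 1278 of all 44501 genes tested. With the density as a covariate the medians were -0.03 for dopamine and cAMP signalling, 0.01 for the AMPA and NMDA subunits, -0.01 for potassium channels, 0.01 for calcium channels and 0 for sodium channels.

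The dopamine receptor gene Drd3 moved less with the covariate. It had 72.1, 56.5, 61.5, 66.6 and 73.8 CPM in EGFP and 91.3, 72.2, 80.4 and 96.4 CPM in RXRa, where only RXRa replicate 2 fell within the EGFP range. Its log2 fold change was 0.36 ± 0.09 (SE), with an edgeR adjusted p of 0.719, and 0.28 with the covariate. Markers of the D1 and of the D2 kind were both higher in the means. Of 8 D1 markers 7 were higher with a median log2 fold change of 0.28, and of 6 tested D2 markers 5 were higher with a median of 0.42. These medians were 0.19 and 0.31 without RXRa replicate 1 and 0.07 and 0.09 with the covariate. Penk had a log2 fold change of 0.83 ± 0.46 (SE), Tac1 0.51 ± 0.32 and Pdyn 0.45 ± 0.21. RXRa replicate 1 had the highest level of Drd1, Tac1, Pdyn, Drd2 and Penk of all 9 libraries.

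Lists of the receptor's own pathway had medians between -0.04 and 0.13, with few members at a low p. Of 13 other RXR partners 5 were higher and 8 lower, with a median log2 fold change of -0.01, and only the thyroid hormone receptor gene Thrb had an unadjusted p under 0.05, at 0.31 ± 0.13. Of 6 RXR and RAR genes all were higher with a median of 0.13, and the single one at that p was Rarb. That median was 0.05 without RXRa replicate 1 and -0.04 with the density as a covariate, with 2 of 6 higher. Among 16 genes of retinoid transport, synthesis and breakdown 9 were higher and 7 lower with a median of 0.03. Among 13 lipid genes controlled by LXR and RXR 8 were higher and 5 lower with a median of 0.01, and none had an unadjusted p under 0.05. The cholesterol exporter gene Abca1 differed by -0.09 ± 0.08 and the desaturase gene Scd2 by 0.2 ± 0.3. Among 10 PPAR and RXR target genes 4 were higher and 6 lower with a median of -0.04, and none reached that p. Most of these genes were within 2 times the silent-gene density, with list medians of 1.37 times for the partners, 1.34 for the retinoid genes, 1.49 for the LXR targets and 1.24 for the PPAR targets, close to the background. Of 12 receptor coregulator genes 10 were higher with a median log2 fold change of 0.11, and none reached that p. With the covariate the median was -0.06, with 2 of 12 higher, and that of the LXR targets was -0.08, with 3 of 13 higher.

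The direction of activity-induced genes depended on the fit. Of 17 genes 11 were higher and 6 lower, with a median log2 fold change of 0.12 that became -0.08 without RXRa replicate 1. With the density as a covariate the median was -0.19, with 0 of 17 higher and 2 at an unadjusted p under 0.05. In that fit 1438 of all 43902 genes tested reached that p. The transcription factor gene Egr1 had 6.28 to 22 CPM in EGFP and 13.9 to 25.1 in RXRa. Without the covariate the neurotrophin gene Bdnf was the 1 member at an unadjusted p under 0.05 and the 1 with separate groups, against 3.41% and 1.42% of all genes, at 24.8 to 27.5 CPM in EGFP and 18.8 to 23.6 in RXRa, a log2 fold change of -0.27 ± 0.09. Its level was 0.984 times the silent-gene density in EGFP and 0.92 in RXRa, which is the background itself. All 7 cortical excitatory markers were lower, with a median of -0.15, or -0.05 with the covariate, which left 2 of 7 higher, and their sum was 148.3 to 181.4 CPM in EGFP and 130.8 to 151.5 in RXRa. Their part in other results was not tested. All 11 tested mitochondrially encoded genes were lower with a median of -0.14, or -0.25 without RXRa replicate 1, and none had an unadjusted p under 0.05. Of 9 interneuron markers 7 were lower with a median of -0.05, and none reached that p.

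Small nucleolar RNAs (snoRNAs), short RNAs that guide the modification of ribosomal RNA and are often cut from introns, were higher in RXRa libraries as a class. The class was singled out after its values had been seen. The summed level of all snoRNA genes was 401 to 521 CPM in EGFP and 545.9, 554, 574.4 and 927.1 CPM in RXRa, and the groups did not overlap. Of 526 snoRNA genes tested 386 were higher, with a median log2 fold change of 0.37, or 0.29 without RXRa replicate 1. The groups did not overlap for 100 higher and 4 lower snoRNA genes, 19% and 0.76% of those tested, against 1.04% and 1.42% of all genes. Without RXRa replicate 1 these were 103 and 10, or 19.6% and 1.9%, against 1.48% and 1.91% of all genes. Over all 9 libraries, 3.48% of small nuclear RNA genes and 3.94% of microRNA genes were higher without overlap. The shares lower without overlap were 1.74% and 1.13%. Snord104 had 1.46, 2.08, 1.35, 1.21 and 2.16 CPM in EGFP and 12.9, 3.53, 3.79 and 2.97 CPM in RXRa. Its log2 fold change was 1.73 ± 0.45 (SE; edgeR adjusted p = 0.719), and 1.05 without RXRa replicate 1. Snord57, which overlaps Nop56, differed by 1.63 ± 0.4, Snord22, which overlaps Snhg1, by 1.29 ± 0.4 and Snora81, which overlaps Eif4a2, by 1.08 ± 0.39. Summed small nuclear RNA genes of the spliceosome and other kinds overlapped between the groups by very little, at 312.9 to 376.3 CPM in EGFP and 375.1 to 618.7 in RXRa. The microRNA sum overlapped, at 496.1 to 785.3 CPM in EGFP and 646 to 1096 in RXRa. In D2 female libraries the snoRNA sum was 441 to 1167 CPM over both vectors.

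Among genes at more than 10 times the silent-gene density, 103 of 687 were higher without overlap, or 15% against 1.04% of all genes, and 79 of the 103 were snoRNA genes. The class was set by the mean over all 9 libraries, so genes high in the RXRa libraries entered it more easily. Its share of higher genes is therefore a description and no independent support. In that class the median gene body was 0.11 kb, while the density was set from genes of 5 kb or longer. The small nuclear RNA and microRNA genes, also short, had median levels of 8.42 and 9.85 times the density. Multiples of the density thus do not show how far such short genes lay above background. Genes above 10 times the density had a median log2 fold change of 0.34, and of 0.16 with the density as a covariate. Among protein-coding genes with a level of at least 3 times the density and a mean of at least 1 CPM, 3 of 797 were higher without overlap and 0 lower, shares below the 1.04% and 1.42% of all genes. They were the ribosomal protein genes Rpl32 and Rps12, each overlapping a snoRNA gene with which reads may be shared, and the defensin gene Defb13. Rpl32 had 4.32 to 6.09 CPM in EGFP and 6.99 to 13.1 CPM in RXRa, differing by 0.74 ± 0.28 on the log2 scale (SE; edgeR adjusted p = 0.787). Rps12 had 2.83 to 3.57 CPM and 3.76 to 6.28 CPM. Defb13 had 2.5 to 3.14 CPM and 3.24 to 3.79 CPM. It had 0 counts in bulk, and at 2.62 times the density in EGFP and 3.7 in RXRa it met the minimum of 3 only through the RXRa libraries.

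The effect of RXRa in D1 females differed from that in D1 males for 0 genes at an edgeR adjusted p under 0.05, with 913 genes at an unadjusted p under 0.05, or 2.08%. Against D2 females it differed for 0 genes, with 1950 at an unadjusted p under 0.05, or 4.44%. Without D1 female EGFP replicate 5 the difference from males passed for 3 genes, Raet1e, Gm26740 and C920009B18Rik.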

How the data were processed

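RNA of sorted D1 nuclei was measured by sequencing of ribosomal-RNA-depleted total RNA, with a stranded low-input kit and paired reads of 150 bp, per the labels' protocols. The authors deposited raw counts, 1 whole number per gene and library. The submitters' processing notes name FastQC, Trimmomatic, HISAT2, Picard, featureCounts and Subread and the build GRCm38, with no versions, roles or settings. The use of strand and of intron reads is not given in the sources used here. Counting reads over whole genes or exons changes the background per kb, which is why it was also computed per exon length.

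Here counts were fitted with edgeR 4.0.16 (R 4.3.3): 35 sorted libraries in 8 groups, filterByExpr, TMM scaling and the quasi-likelihood test, with an adjusted p threshold of 0.05. Library sizes and tests do not include the 2 vector entries. CPM is counts per 1000000 of the effective library size. The silent-gene density is the median CPM per kb over 1576 silent genes (protein-coding, on autosomes, 5 kb or longer, and 0 counts in all bulk libraries). Gene positions come from GENCODE M21, which holds 55394 of 55487 identifiers, and 93 were not matched. Promoters of 6 of 8 genes looked up were found in the RefSeq table, and those of Mx1 and Mx2 were not. Some genes of the lists are counted but not reported singly here. Single values were tested by exact permutation with a pseudocount of 1. Replicate pairs within the 2 groups differed by a chi-square of 3.05 to 15.2 per degree of freedom, so each library counted as 1 sample. PCR reads are not independent molecules, and only counting error is covered by a total.

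Named genes are the vector entries, Rxra, Drd1, Tac1 and Pdyn, the gene with the smallest p, up to 12 protein-coding genes in each direction at 3 times the density or more, 1 CPM or more and with separate groups, up to 4 members of each of 28 lists, and genes called by an alternative that called at most 10. Others are marked as chosen after their values were seen, and Sst was too. The members and lists were chosen with earlier results of these data known. The fits were tested on simulated data. DESeq2 1.42.0 and limma 3.58.1 served as alternatives.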

Additional observations from a re-analysis of the deposited data

Results flagged for a closer look

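In groups of 4 and 5 libraries, a library whose gap to its nearest neighbour took up most of the group's range was looked at again. By the rule's critical values, chance alone marks about 1 in 20 groups of normally distributed values. The groups here share the same 9 libraries and are not independent, so the number marked is not read as an excess. Of 106 groups checked, 18 had such a library, and in 13 of them it was RXRa replicate 1. This library was the highest of its group in summed snoRNA (927 CPM, the others 546 to 574) and summed small nuclear RNA genes (619 CPM, the others 375 to 415). It was also highest for Tac1 (59 CPM, the others 43.3 to 44.5), Pdyn (65.6 CPM, the others 42.8 to 45.8), Chrm4, a muscarinic receptor gene of D1 neurons (15.5 CPM, the others 8.08 to 8.57), and Egr1 (25.1 CPM, the others 13.9 to 14.5). The same held for Rpl32 at 13.1 CPM, Rps12 at 6.28, Snord57 at 3.93, Snord104 at 12.9, Snord22 at 14.6 and Snora81 at 9.52. It was the lowest for Ebf1, at 244 CPM where the others had 262 to 265.

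EGFP replicate 5 was the lowest of its group for Raet1e at 35.7 CPM and, within the Raet1e body, for Gm26740 at 10.3 CPM and C920009B18Rik at 2.27 CPM. The other EGFP libraries had 52.8 to 56.3, 15.7 to 16.8 and 3.51 to 3.99 CPM of these 3 genes. EGFP replicate 2 was the highest for the glutamate transporter gene Slc17a7, at 23.2 CPM with the others at 9.71 to 11.2. RXRa replicate 4 was the highest for Defb13, at 3.79 CPM with the others at 3.24 to 3.31.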

How the results depend on the processing

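The count of called genes was 0 with RLE size factors, library totals, no filter, a minimum mean CPM of 1, a minimum of 3 times the silent-gene density, limma voom, a robust fit and the density as a covariate. It was 4 with DESeq2 and 1, Ifit1, with the 9 libraries only. Leaving out each library gave 0 to 4 for this comparison and 0 to 3 for the difference from D1 males. Whether the replicate numbers pair the samples could not be settled from 4 numbers. Correlations between same-numbered libraries were -0.19 to 0.25, and 2 of 4 numbers correlated best with their own. With the numbers as a replicate block 1 gene, Ifit1, was called. Genes at an unadjusted p under 0.05 numbered 2761, 1438 with the density covariate and 1839 with the replicate block. Among the 5823 genes at 3 times the density or more they numbered 575, or 580 with TMM over those genes. With 1 library left out they numbered 1278 (RXRa replicate 1), 1508 (RXRa replicate 5), 1829 (EGFP replicate 4) and 4398 (RXRa replicate 2). The other alternatives were within 1.5 times of 2761. For the difference from D1 males 913 became 1455 without RXRa replicate 4, and for that from D2 females 1950 became 1151 with the replicate block. Of the genes at that p for RXRa against EGFP the share that was higher was 45.7%, 21.5% with library totals, 60.6% with the CPM minimum, 57.3% with the 9 libraries only, and 56.8% with the covariate. Among genes at 3 times the density it was 78.3%, or 40.9% with TMM over those genes, a choice made after seeing the data, as were counts of separate groups without RXRa replicate 1. The vector GFP difference ran from -0.87 to -0.34 when a library was left out. Of 47 genes, 38 kept their direction in all 21 alternatives in which they were tested. With the covariate the sign reversed for Rxra (-0.0195), Drd1 (-0.0569), Chrm4 (-0.0352), Ebf1 (0.0661), Rxrg (-0.0827), Abca1 (0.0459), Scd2 (-0.0866), Egr1 (-0.148) and Ifit3 (0.00482), and with library totals for Rxra (-0.0358). The cause was not tested. Genes at the uniform background limit what depth can show.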
